A study of Mus musculus with 10 samples.

Results

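The Eph receptors, their ephrin ligands, the semaphorins and the semaphorin receptors (plexins and neuropilins) were examined in isolated kidney mesenchyme of embryos with and without Wnt9b. The genes were taken by symbol from probe sets annotated to 1 gene, and each gene was represented by its brightest probe set by mean over all arrays. This gave 52 genes of 18193 on the arrays: 5 ephrin-A and 3 ephrin-B ligands, 9 EphA and 4 EphB receptors, 20 semaphorins, 9 plexins and 2 neuropilins. They were covered by 123 probe sets.

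The arrays held 5 RNA pools from Wnt9b-/- embryos (mutant) and 5 from Wnt9b+/+ littermates (wild type), all at E11.5 and all of metanephric mesenchyme parted from the ureteric bud after treatment with trypsin/pancreatin. Each pool came from 25 to 30 mesenchymes. The series' design text calls the controls heterozygous, whereas the sample labels, followed here, call them homozygous wild type. The mutant allele is not described further, and no cell-type-restricted deletion is named. Replicate numbers only name the arrays. Values are probe-set signals on a linear scale, and differences are mutant minus wild type on the scale log2(signal + 1), with the SE of the limma fit.

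Ephrins and Eph receptors are both membrane proteins, so that they signal on contact between cells and often in both directions, and they are known for cell sorting, boundaries and repulsion. Ephrin-A ligands hang on a lipid anchor and mostly bind EphA receptors, while ephrin-B ligands cross the membrane and mostly bind EphB receptors. Semaphorins are guidance cues, secreted in class 3 and membrane-bound in classes 4 to 7, that act through plexins, with neuropilins as co-receptors for most of class 3. In kidney development members of these families have been linked to branching of the ureteric bud, the ordering of mesenchyme and the growth of vessels. Wnt9b is made by the ureteric bud and acts on the mesenchyme, in part through beta-catenin and Tcf/Lef factors.

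No gene of these families passed the test over all genes (limma adjusted p from 0.613 upwards, 5 arrays per group). At an unadjusted p under 0.05 there were 6 genes with higher signal in the mutant and 0 with lower signal, beside 3.41% and 2.08% of all 18193 genes (5.49% in either direction). These 6 were Epha7, Efna3, Ephb6, Sema4f, Sema6a and Sema6b. The share of all genes with an adjusted p under 0.05 was 0.0055%, which is 1 gene. The mutant mean was above the wild-type mean for 41 of the 52 genes, beside 54.9% of all genes, and the median difference was +0.15, beside +0.025 over all genes. By family, over all 10 arrays, all 8 ephrins and both neuropilins lay above 0, whereas 4 of the 7 class 3 semaphorins lay below it.

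The arrays fell into 2 sets by the 18S ribosomal RNA control, with 4 high-18S arrays (2 of each genotype) and 6 low-18S arrays (3 of each). Signals of its 5' probe set were 1975 to 2587 and 92.4 to 322. Within the low-18S arrays 44 of the 52 genes lay above 0 (57.3% of all genes did) with a median of +0.23, beside +0.048 over all genes. Within the high-18S arrays 30 lay above 0 (48.5% of all genes) with a median of +0.057, beside -0.0094 over all genes. At an unadjusted p under 0.05 there were 5 genes higher (Efna1, Efna4, Epha7, Sema6a and Sema6b) and 0 lower in the low-18S arrays, beside 3.18% and 1.41% of all genes, and 0 higher and 1 lower (Plxna4) in the high-18S arrays, beside 2.57% and 3.44%. Whether the sets differ was not tested. Hybridisation controls were brightest on mutant array 2 and wild-type array 3, with mean log2 signals of 11.87 and 11.48, against at most 10.87 on the others. The mean log2 signal over the 52 genes was 7.79, 7.66, 7.62, 7.54 and 7.48 in mutant arrays 1 to 5, against 7.54, 7.47, 7.27, 7.54 and 7.55 in wild-type arrays 1 to 5. The groups overlapped, with mutant array 1 highest and wild-type array 3 lowest. Over all genes wild-type array 3 was also lowest, at 6.88. Mutant array 3 was highest there, at 7.07, and mutant array 1 was at 7.04. The 10 dim genes, those among the lowest 40% of all genes by mean signal, were left out in a further fit, in which 34 of 42 genes lay above 0, beside 55.5% of all genes, and 5 were higher at an unadjusted p under 0.05, beside 4.4%, and 0 lower, beside 2.54%. Wnt9b itself had a log2 signal of 6.23 ± 0.54 in the mutant and 6.47 ± 0.14 in wild type (SD, n = 5 each), a difference of -0.24 (SE 0.24). Whether its probe set lies in the altered part of the gene was not known here, so it checks nothing about the labels.

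Markers of the cell types that the pools could hold are given beside these values. Nephron progenitor genes, which define the cap mesenchyme, were lower in 11 of 11 measured members (median difference -0.73), with a summed signal of 4251 to 8079 in the mutant and 9180 to 11124 in wild type. Endothelial genes were higher in 12 of 12 (median +0.19, summed signal 3852 to 5380 in the mutant and 3738 to 4880 in wild type) and macrophage genes in 10 of 10 (median +0.37, 1485 to 2887 in the mutant and 1470 to 2136 in wild type). Renal stroma genes were higher in 9 of 12 (median +0.14, 21087 to 27755 in the mutant and 19788 to 23121 in wild type), and neuron and neural crest genes in 5 of 7 (median +0.16, 1020 to 1409 in the mutant and 821 to 1149 in wild type). Ureteric bud genes were higher in 8 of 13 (median +0.11, 1363 to 3944 in the mutant and 1966 to 3238 in wild type). The bud list held Wnt9b itself, and Ret was in both the bud list and the neuron and neural crest list. No marker was at 0 on any array, and Krt19, Rab25, Esrp1 and Tfap2b of the bud, Sox10 and Foxd3 of the neural crest, and Ptprc and Cx3cr1 of the macrophages lay among the dimmest 40% of genes. Their part in the results below was not tested. In these bulk pools, fewer cells of a type and less RNA per cell cannot be told apart.

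Promoter sequences are shown for the genes with the smallest p, Epha7 and Sema4f, and for Ephb3 and Efnb1, which in mouse and human gut epithelium have been placed under the control of beta-catenin and Tcf factors, the receptor as a gene they raise and the ligand as one they lower. They are the 250 bases before the start of each gene on the gene's strand, from RefSeq, build GRCm38.p6, at chr4:28812881-28813130 (plus strand), chr6:82939770-82940019 (minus strand), chr16:21204545-21204794 (plus strand) and chrX:99135811-99136060 (plus strand). For Epha7 2 starts are listed, and the window of only 1 is shown. Capitals mark the GC box GGGCGG on either strand.
Epha7: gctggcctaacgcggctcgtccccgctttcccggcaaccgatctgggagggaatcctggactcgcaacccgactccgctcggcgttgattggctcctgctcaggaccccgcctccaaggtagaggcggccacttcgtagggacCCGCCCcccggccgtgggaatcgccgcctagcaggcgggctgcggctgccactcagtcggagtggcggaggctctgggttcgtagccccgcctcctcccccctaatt
Sema4f: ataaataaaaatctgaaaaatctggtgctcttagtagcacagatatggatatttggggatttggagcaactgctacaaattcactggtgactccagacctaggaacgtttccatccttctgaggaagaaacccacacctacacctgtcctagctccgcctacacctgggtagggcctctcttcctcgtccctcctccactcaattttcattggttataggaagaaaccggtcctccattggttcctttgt
Ephb3: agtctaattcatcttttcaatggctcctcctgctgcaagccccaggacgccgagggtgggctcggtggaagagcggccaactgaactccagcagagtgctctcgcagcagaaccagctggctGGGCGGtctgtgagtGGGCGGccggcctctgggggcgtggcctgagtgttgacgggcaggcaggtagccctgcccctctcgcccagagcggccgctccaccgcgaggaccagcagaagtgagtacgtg
Efnb1: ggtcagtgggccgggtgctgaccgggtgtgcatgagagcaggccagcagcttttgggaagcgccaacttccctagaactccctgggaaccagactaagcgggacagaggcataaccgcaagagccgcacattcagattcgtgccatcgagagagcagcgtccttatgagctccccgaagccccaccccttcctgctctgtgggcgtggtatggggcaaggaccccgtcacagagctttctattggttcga
The Epha7 window held 1 GC box, the Ephb3 window 2, and those of Sema4f and Efnb1 none. Of the Tcf/Lef site, the form CTTTGA was searched on both strands and was in none of the 4 windows. CTTTGA can share at most 1 base with the GC box. Other forms of the site were not searched. Of the 52 genes, 46 had a promoter in the table, and the window held CTTTGA in 3 of them (6.52%: Nrp2, Epha2 and Sema3e), beside 14.0% of all 27025 promoters in the table and 12.2% of the 14452 of genes on the arrays. The GC box was in 36 of 46 (78.3%), beside 32.9% and 49.9%. These matches describe letters only.

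Among the A-type receptors, Epha7, which takes part in contact repulsion and has a kinase domain that is spliced out in some isoforms, had the smallest p of all 52 genes. Its signals were 1126, 1137, 987, 1442 and 1197 in mutant arrays 1 to 5, against 824, 748, 744, 879 and 1008 in wild-type arrays 1 to 5. Only mutant array 3 and wild-type array 5 overlapped. The log2 signal was 10.19 ± 0.20 in the mutant and 9.71 ± 0.18 in wild type (SD, n = 5 each), a 1.40-fold difference (+0.48, SE 0.14, 95% interval +0.18 to +0.79, limma adjusted p = 0.613). The 3 other probe sets of Epha7 gave +0.25, +0.42 and +0.56. At the brightest probe set the difference was +0.60 in the high-18S and +0.41 in the low-18S arrays, and without any 1 array it stayed between +0.41 and +0.55.

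Epha4, a receptor that binds ephrins of both types, had signals of 566, 678, 594, 943 and 796 in mutant arrays 1 to 5, against 456, 580, 502, 523 and 827 in wild-type arrays 1 to 5. The groups overlapped, and the difference was +0.32 (SE 0.20, limma adjusted p = 0.959), and +0.21 without mutant array 4. Its other 4 probe sets, all dimmer, gave -0.59 to +0.15, so the mean over its probe sets was -0.021. The other A-type receptors showed no difference that this design could resolve. Epha3 differed by +0.091 (SE 0.21) and Epha2, a receptor of many epithelia, by -0.14 (SE 0.21). Epha1, Epha5, Epha6, Epha8 and Epha10 were among the dimmest 40% of genes on the arrays. Their differences ran from -0.82 for Epha5 to +0.36 for Epha1 with SE of 0.29 to 0.83. Epha5 rested on a signal of 0.9 in mutant array 2, against 25.4 to 60.7 in the other mutant arrays and 32.0 to 51.9 in wild type, and was +0.068 without that array.

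All 4 B-type receptors among the 52 genes lay above 0. Ephb2, a further B-type receptor, was not among the 52 genes, so the class is not complete here. Ephb6, a receptor whose kinase domain is inactive, had signals of 79.8, 117, 75.0, 81.3 and 69.0 in mutant arrays 1 to 5, against 58.6, 42.7, 19.0, 70.2 and 61.8 in wild-type arrays 1 to 5. The mutant arrays were high except for an overlap between mutant array 5 and wild-type array 4, and wild-type array 3 was lowest. The log2 signal was 6.39 ± 0.29 in the mutant and 5.56 ± 0.74 in wild type (SD, n = 5 each), 1.78-fold apart (+0.83, SE 0.33, limma adjusted p = 0.880). The difference was +0.52 without wild-type array 3, +0.40 without both arrays with the brightest hybridisation controls, and +0.64 with a pseudocount of 16. Ephb3 had signals of 306, 142, 192, 127 and 132 in mutant arrays 1 to 5, against 109, 122, 80.9, 207 and 214 in wild-type arrays 1 to 5. The groups overlapped throughout except for mutant array 1 at the top and wild-type arrays 1, 2 and 3 at the bottom. The difference of +0.31 (SE 0.33) was +0.73 within the low-18S arrays, -0.32 within the high-18S arrays and +0.095 without mutant array 1. Ephb4, the receptor of venous endothelium, differed by +0.10 (SE 0.28) and Ephb1 by +0.097 (SE 0.30).

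The 8 ephrins had a median difference of +0.25 and ran from +0.042 for Efna5 to +0.37 for Efna3. Efna3 had signals of 214, 149, 214, 189 and 209 in mutant arrays 1 to 5, against 141, 183, 126, 146 and 156 in wild-type arrays 1 to 5. Mutant array 2 fell within the wild-type range, and the other 4 mutant arrays were above all wild-type arrays. The log2 signal was 7.60 ± 0.22 in the mutant and 7.23 ± 0.20 in wild type (SD, n = 5 each), 1.29-fold apart (+0.37, SE 0.14, limma adjusted p = 0.869). Its second probe set gave +0.19. Efna2 differed by +0.34 (SE 0.19), and by +0.17 without wild-type array 4, where its signal was 316 (475 to 624 on the other 4 wild-type arrays). Efna4 differed by +0.27 (SE 0.22), and by +0.16 without mutant array 3, and Efna1, an ephrin known from vessels and epithelia, by +0.21 (SE 0.16). Within the high-18S arrays these 3 were at +0.043, -0.097 and -0.20. Efna5 had the smallest SE of all 52 genes (0.096), with signals of 581 to 633 in the mutant and 532 to 658 in wild type and a 95% interval of -0.17 to +0.26.

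The B-type ephrins were above 0 within both sets of arrays. Efnb1 had signals of 706, 746, 862, 862 and 883 in mutant arrays 1 to 5, against 632, 754, 680, 668 and 719 in wild-type arrays 1 to 5. Mutant arrays 1 and 2 lay within the wild-type range and the other 3 above it. The difference was +0.23 (SE 0.11, limma adjusted p = 0.916), with +0.24 in the high-18S and +0.22 in the low-18S arrays, and its other probe sets gave +0.028 and +0.11. Efnb2, the ephrin of arterial endothelium, had signals of 757, 574, 546, 733 and 650 in mutant arrays 1 to 5, against 561, 570, 488, 465 and 597 in wild-type arrays 1 to 5. Mutant arrays 1, 4 and 5 lay above all wild-type arrays, and the difference was +0.28 (SE 0.13, limma adjusted p = 0.916). Of its 3 other probe sets 2 gave +0.15 and +0.24 and the dimmest -0.72, so that their mean with the brightest was -0.014. Efnb3 differed by +0.18 (SE 0.14). With a block for the 18S sets Efnb1, Efnb2 and Epha4 also had an unadjusted p under 0.05, which made 9 genes higher and 0 lower, beside 4.09% and 2.54% of all genes.

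**Figure D1:**
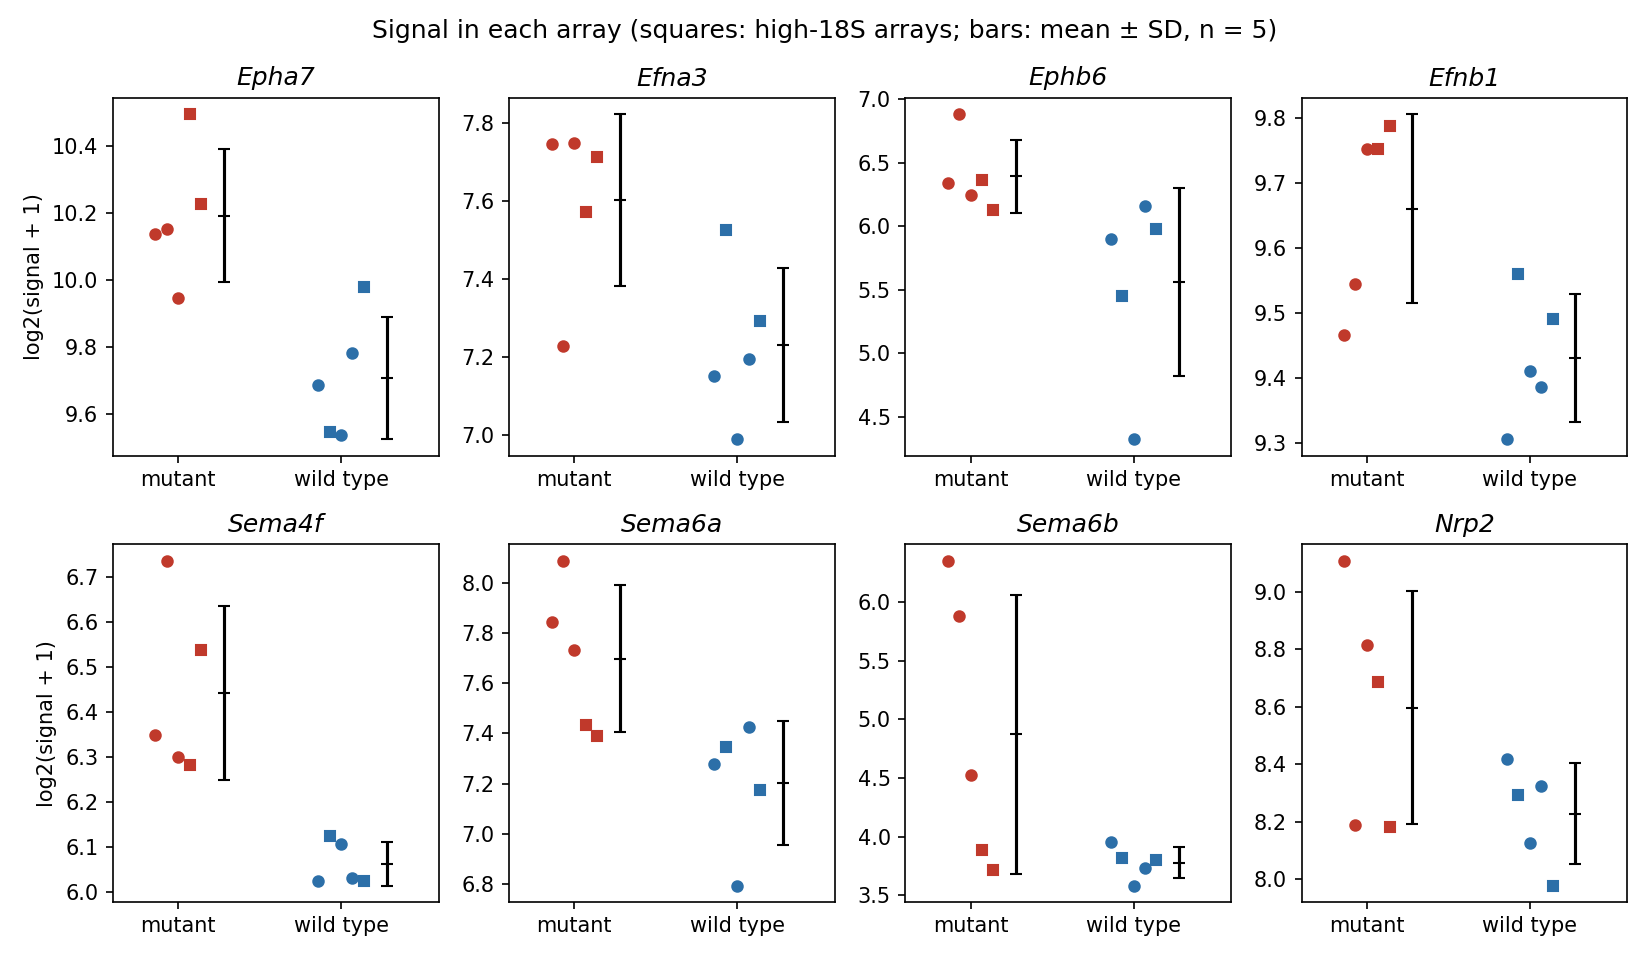
Signal on the scale log2(signal + 1) in each of the 5 mutant (left, red) and 5 wild-type (right, blue) arrays for 8 genes, with squares for the 4 high-18S arrays and black bars for the mean ± SD. Sema4f was the gene without overlap between the groups, and mutant arrays 1 and 2 stood above all other arrays for Sema6b.

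Over all 10 arrays the secreted class 3 semaphorins were the class with more genes below 0 than above it. There were 4 of 7 below, the median was -0.15, and none of the 7 had an unadjusted p under 0.05. Within each 18S set the count turned, with 4 of the 7 above 0. The medians were +0.022 in the high-18S and +0.15 in the low-18S arrays. Sema3a, which acts through Nrp1 with plexin A receptors and restrains ureteric bud branching in mouse kidney cultures, had signals of 191, 119, 150, 82.6 and 107 in mutant arrays 1 to 5, against 180, 119, 152, 228 and 140 in wild-type arrays 1 to 5. The groups overlapped. The difference was -0.36 (SE 0.25, limma adjusted p = 0.974), with -0.46 in the high-18S and -0.29 in the low-18S arrays, and its other probe sets gave -0.56 and, at the dimmest, +1.12. The difference at the brightest probe set was -0.21 without mutant array 4. Sema3f, a ligand of Nrp2, was below 0 at all 3 of its probe sets, at -0.15 (SE 0.22), -0.49 and -0.35. Sema3d was at -0.15 and -1.28 at its 2 probe sets, the second of which was dim. Sema3b had the smallest p of the class, with signals of 71.9, 103, 71.1, 85.1 and 92.4 in mutant arrays 1 to 5, against 75.7, 83.1, 64.0, 74.1 and 47.5 in wild-type arrays 1 to 5. Mutant arrays 2, 4 and 5 lay above all wild-type arrays, and the difference was +0.31 (SE 0.18, limma adjusted p = 0.946), and +0.18 without wild-type array 5. Sema3c, a cue for neural crest and vessels, differed by +0.14 (SE 0.15), Sema3g, an endothelial semaphorin, by +0.27 (SE 0.31), and the dim Sema3e, a ligand of Plxnd1, by -0.29 (SE 0.81).

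Among the membrane-bound class 4 semaphorins, Sema4f was the only one of the 52 genes whose groups did not overlap, beside 0.654% of all genes without overlap and higher in the mutant and 0.555% lower. Its signals were 80.6, 106, 77.8, 76.9 and 91.9 in mutant arrays 1 to 5, against 64.1, 68.8, 67.9, 64.5 and 64.2 in wild-type arrays 1 to 5. The wild-type arrays were closely alike and every mutant array lay above them. The log2 signal was 6.44 ± 0.19 in the mutant and 6.06 ± 0.05 in wild type (SD, n = 5 each), 1.30-fold apart (+0.38, SE 0.11, 95% interval +0.12 to +0.63, limma adjusted p = 0.681). Sema4f was not counted as dim, but the cut for dim genes, a log2 signal of 6.24, lay between its group means. The second probe set of Sema4f gave +0.20 with a wide SE of 0.56. Sema4c, a ligand of Plxnb2 linked to ureteric branching in the mouse, differed by +0.11 (SE 0.22), and Sema4d, the ligand of Plxnb1, by +0.24 (SE 0.24). Sema4g was at +0.21 (SE 0.15) and the dim Sema4a at +0.070 (SE 0.25). Sema4b had signals of 94.7, 51.3, 84.0, 121 and 141 in the mutant arrays, against 114, 160, 83.1, 140 and 150 in the wild-type arrays, which overlapped, and differed by -0.43 (SE 0.28), or -0.22 without mutant array 2.

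In class 5 both genes lay above 0. Sema5a had signals of 226, 199, 199, 225 and 159 in mutant arrays 1 to 5, against 191, 160, 162, 203 and 168 in wild-type arrays 1 to 5, which overlapped, with a difference of +0.19 (SE 0.13, limma adjusted p = 0.974). Sema5b differed by +0.095 (SE 0.16).

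Class 6 semaphorins, which span the membrane and bind plexin A receptors, were uneven. Sema6a had signals of 229, 271, 212, 172 and 167 in mutant arrays 1 to 5, against 154, 162, 110, 171 and 143 in wild-type arrays 1 to 5. Mutant arrays 1 to 3 stood clear of wild type, mutant array 4 was just above its highest array and mutant array 5 below that. The difference was 1.41-fold (+0.49, SE 0.17, limma adjusted p = 0.814), with +0.72 within the low-18S arrays and +0.15 within the high-18S arrays, and +0.29 without both arrays with the brightest hybridisation controls. Its dimmer probe sets gave +0.74 and +1.63. Sema6b, a dim gene with 1 probe set, had signals of 80.7, 58.0, 22.0, 13.8 and 12.1 in mutant arrays 1 to 5, against 14.4, 13.1, 10.97, 12.3 and 12.9 in wild-type arrays 1 to 5. Mutant arrays 1 and 2 were far above the rest, mutant array 3 was moderately above, and the high-18S mutant arrays 4 and 5 lay within the wild-type range. Its difference of +1.10 (SE 0.49, limma adjusted p = 0.905) was +1.83 within the low-18S arrays, -0.0090 within the high-18S arrays, +0.73 without mutant array 1 and +0.71 with a pseudocount of 16. Summed ureteric bud marker signal was also highest on those arrays, at 3944 and 3690, against 1363 to 2375 in the other mutant arrays and 1966 to 3238 in wild type, and its part in the Sema6b values was not tested. Sema6d was steady, with signals of 483 to 562 in the mutant and 501 to 648 in wild type and a 95% interval of -0.30 to +0.18. Sema6c differed by +0.082 (SE 0.22).

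Sema7a, the lipid-anchored semaphorin that binds Plxnc1 and integrins, had signals of 155, 118, 77.7, 138 and 100 in mutant arrays 1 to 5, against 118, 81.0, 55.7, 92.6 and 116 in wild-type arrays 1 to 5. The groups overlapped and the difference was +0.36 (SE 0.25, limma adjusted p = 0.974), and +0.19 without wild-type array 3.

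**Figure D2:**
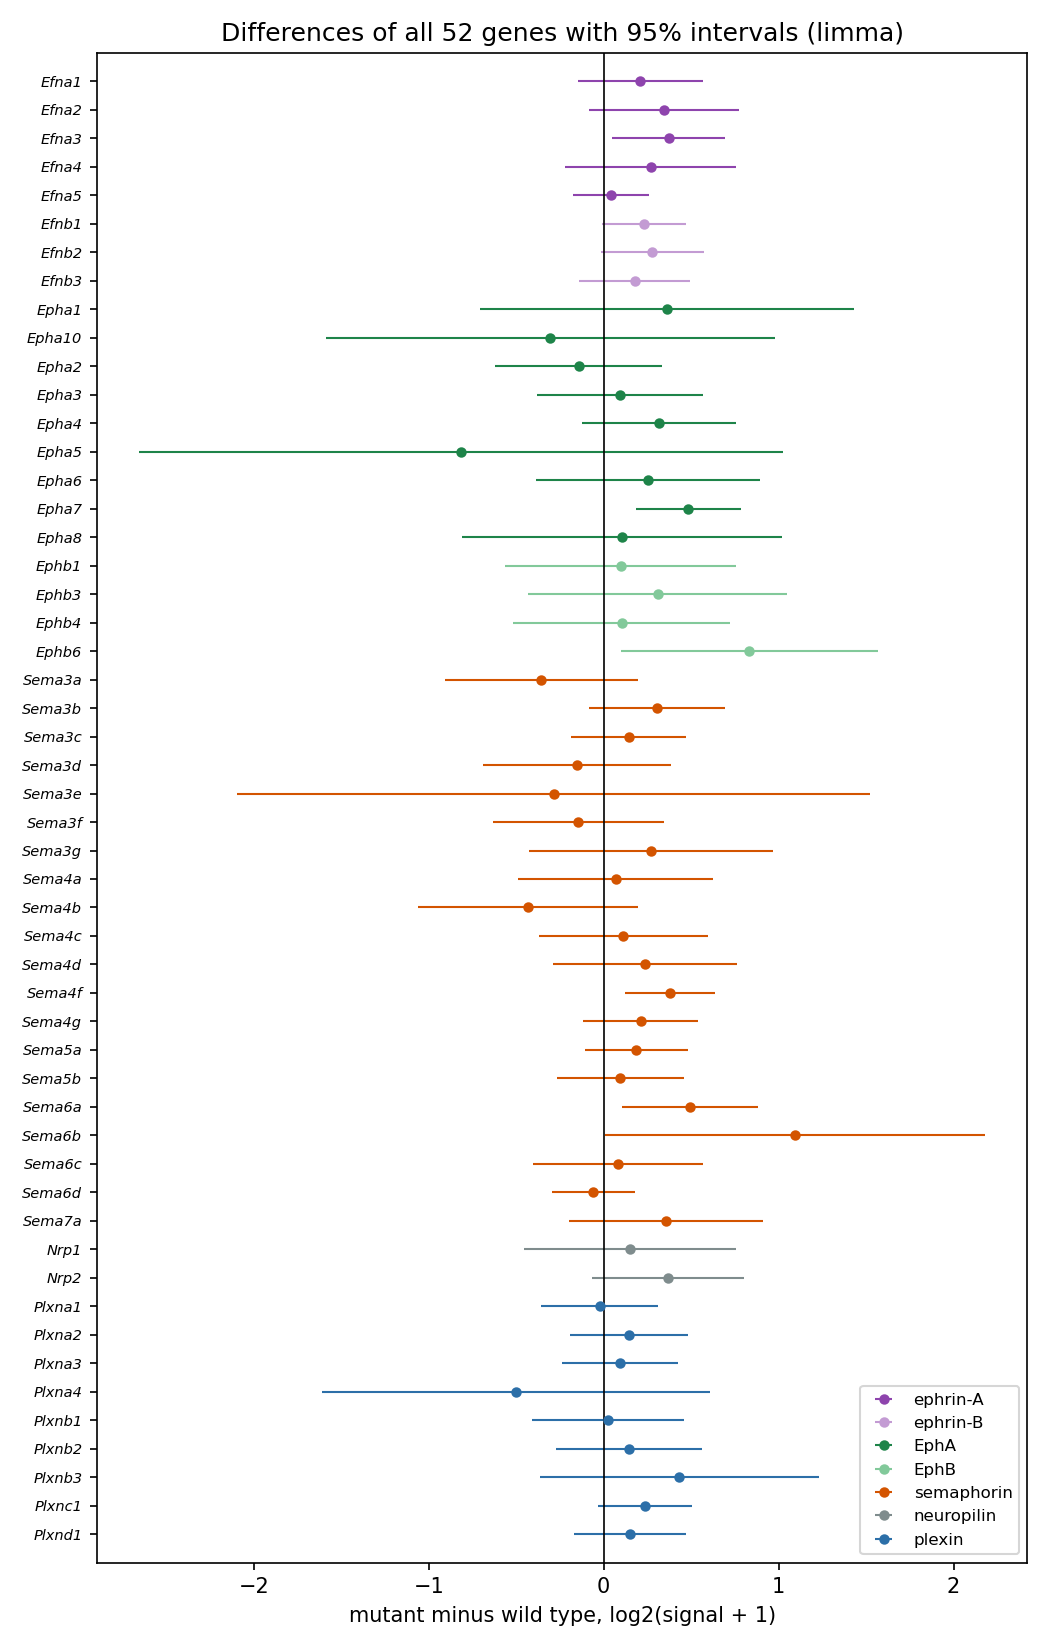
Difference in log2(signal + 1), mutant minus wild type, for all 52 genes by family, with 95% intervals from the limma fit. All 8 ephrins lie above 0, and the intervals of 6 genes exclude 0 before adjustment.

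The neuropilins are co-receptors shared by class 3 semaphorins and VEGF and are found on vessels, neurons and mesenchyme. Nrp1 had signals of 2242, 2266, 2393, 4594 and 3596 in mutant arrays 1 to 5, against 2439, 2907, 2226, 1822 and 4135 in wild-type arrays 1 to 5. The high-18S arrays were the high ones in both groups, and the groups overlapped. The difference was +0.15, with an SD of log2 signal of 0.47 in the mutant and 0.45 in wild type (n = 5 each; SE 0.27, 95% interval -0.46 to +0.76), and -0.016 without mutant array 4. Its 3 other probe sets gave +0.16, +0.25 and +0.32. Nrp2 had signals of 551, 291, 449, 411 and 290 in mutant arrays 1 to 5, against 341, 312, 278, 320 and 251 in wild-type arrays 1 to 5. Mutant arrays 1, 3 and 4 were above all wild-type arrays and the other 2 lay among them. The difference was +0.37 (SE 0.20, limma adjusted p = 0.941), with +0.30 in the high-18S arrays, +0.41 in the low-18S arrays and +0.24 without mutant array 1. Its other probe sets gave +0.056, +0.32 and +0.48.

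The 9 plexins, the signalling receptors for semaphorins, had no gene with an unadjusted p under 0.05. The A class, which serves class 3 with neuropilins and binds class 6 directly, had 2 genes above and 2 below 0. Plxna4 had signals of 163, 112, 119, 40.8 and 21.6 in mutant arrays 1 to 5, against 128, 93.9, 109, 104 and 83.6 in wild-type arrays 1 to 5. Both high-18S mutant arrays were below every other array. The difference of -0.50 (SE 0.50) was -1.54 in the high-18S and +0.19 in the low-18S arrays, and the second probe set gave +0.55. At the brightest probe set it was -0.078 without mutant array 5 and -0.30 without mutant array 4. Plxna1 differed by -0.024 (SE 0.15) at its brightest probe set and by -1.09 (SE 0.41) at the other, which was dim, so that the mean of both was -0.56. Plxna2 differed by +0.14 (SE 0.15) and Plxna3 by +0.093 (SE 0.15).

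Of the B class, Plxnb2, linked with Sema4c to ureteric branching, differed by +0.14 (SE 0.19) and Plxnb1 by +0.024 (SE 0.19). The dim Plxnb3 had signals of 79.9, 74.9, 56.8, 59.8 and 68.2 in mutant arrays 1 to 5, against 69.1, 25.8, 26.0, 87.4 and 73.8 in wild-type arrays 1 to 5. Wild-type arrays 2 and 3 were the low ones, and the difference was +0.43 (SE 0.36, limma adjusted p = 0.988), and +0.20 without wild-type array 2. Plxnc1, the receptor of Sema7a, had signals of 180, 149, 159, 170 and 168 in mutant arrays 1 to 5, against 122, 140, 175, 129 and 138 in wild-type arrays 1 to 5. Wild-type array 3 lay among the mutant arrays and the other 4 wild-type arrays below them. The difference was +0.24 (SE 0.12, limma adjusted p = 0.941), but 2 of its 5 other probe sets, all dimmer, were below 0, at -0.46 and -0.58. Plxnd1, the endothelial receptor of Sema3e, had signals of 829, 654, 606, 795 and 684 in mutant arrays 1 to 5, against 689, 711, 498, 724 and 599 in wild-type arrays 1 to 5. The groups overlapped and the difference was +0.15 (SE 0.14, limma adjusted p = 0.993), and +0.062 without wild-type array 3. The endothelial markers stood beside it at a median of +0.19.

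Mutant array 1 carried the highest signal of its group for Efna1, Efnb2, Epha2, Epha10, Ephb3, Nrp2, Plxna3, Plxna4, Plxnb3, Plxnc1 and Plxnd1. The same held for Sema3a, Sema3g, Sema4a, Sema4c, Sema5a, Sema6b and Sema7a. Of these genes Epha2, Epha10, Plxna4 and Sema3a had a difference below 0. The share of all genes with their highest mutant signal on this array is not given here. Without mutant array 1, 41 of the 52 genes lay above 0, beside 54.0% of all genes. The median was then +0.14, beside +0.020 over all genes. Mutant array 1 also had the lowest summed nephron progenitor signal of all 10 arrays, 4251, and the highest summed endothelial (5380), neuron and neural crest (1409) and ureteric bud (3944) signals. The part of these in the differences was not tested.

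Single genes were compared across both sets of arrays. Above 0 within both sets were 26 of the 52 genes, beside 29.8% of all genes. Among the 26 were 6 of the 8 ephrins, both neuropilins and 5 of the 6 genes with an unadjusted p under 0.05, Sema6b being the exception. All 9 plexins lay above 0 within the low-18S arrays and 4 within the high-18S arrays, and of the 20 semaphorins 16 and 9.

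**Figure D3:**
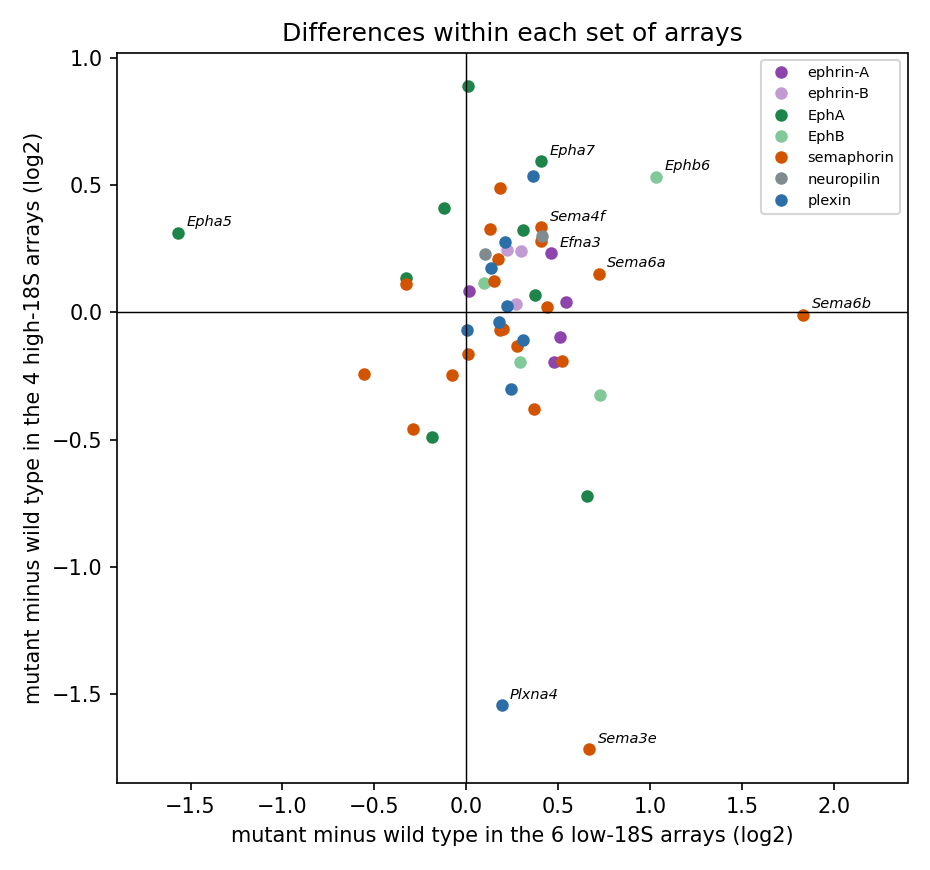
Difference in log2(signal + 1), mutant minus wild type, within the 6 low-18S arrays (horizontal) and within the 4 high-18S arrays (vertical) for each of the 52 genes, coloured by family. Epha7, Ephb6, Sema4f, Efna3 and Sema6a lie above 0 on both axes, and Sema6b lies at -0.0090 on the vertical axis.

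Of the 52 genes, 36 had more than 1 probe set. All probe sets lay on the higher side for 17 genes, on the lower side for 4 (Plxna1, Sema3d, Sema3f and Sema6d), and on both sides of 0 for 15. The 17 included 5 ephrins (Efna1, Efna2, Efna3, Efna5 and Efnb1), Epha3, Epha7, both neuropilins, Sema4f, Sema6a and Sema7a. Over all 123 probe sets 89 lay above 0 and 34 below. The shares over all probe sets and over all genes with several probe sets are not given here. At the brightest probe set 54.9% of all genes lay above 0.

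**Figure D4:**
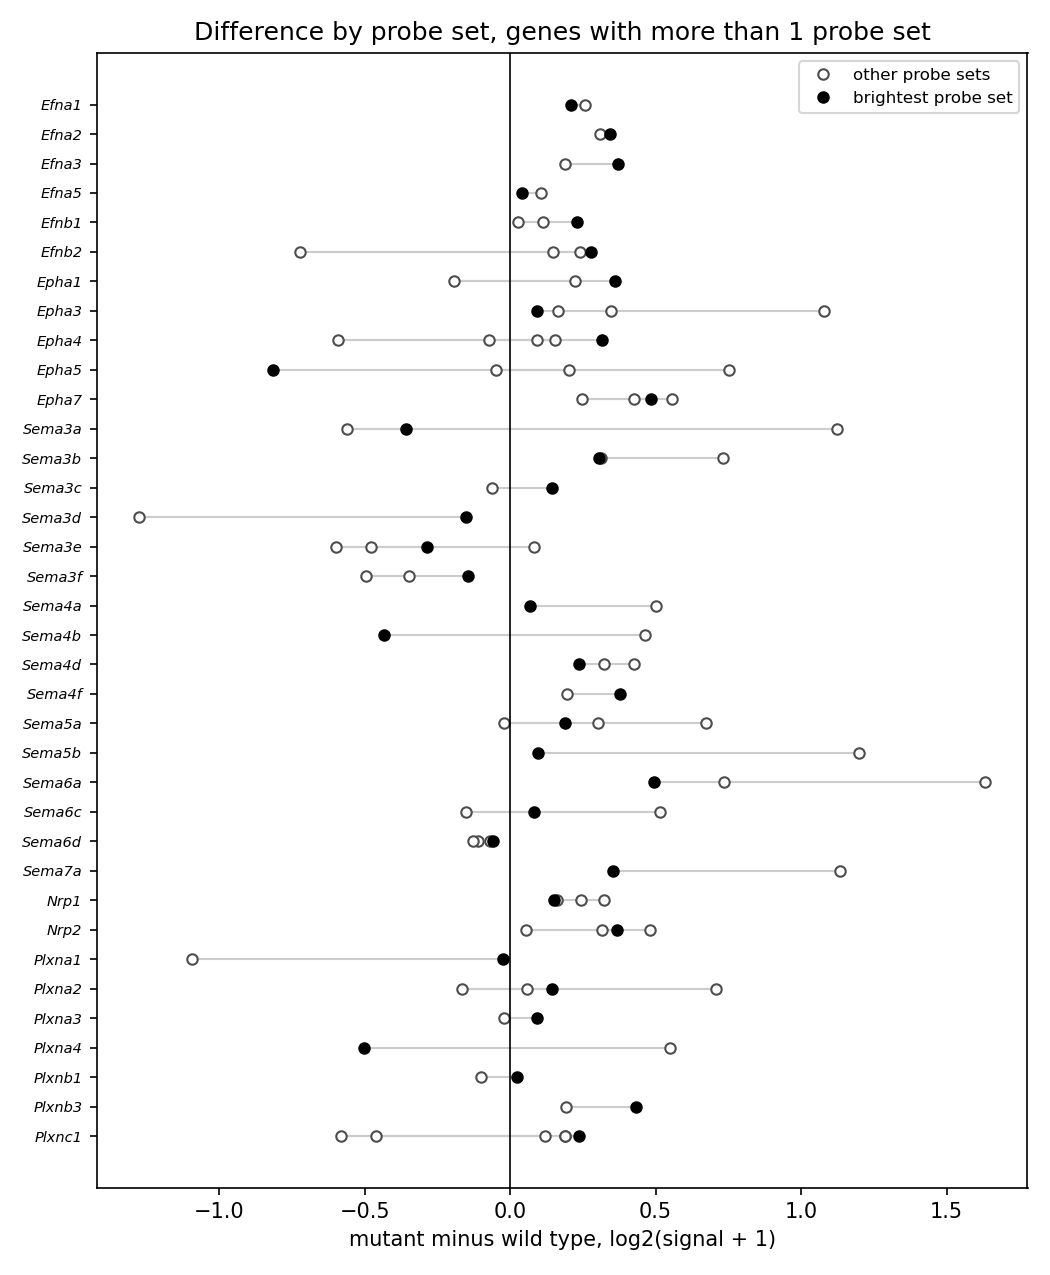
Difference in log2(signal + 1), mutant minus wild type, for every probe set of the 36 genes with more than 1, with filled circles for the brightest probe set and open circles for the others. The 4 probe sets of Epha7 lie between +0.25 and +0.56, while those of Epha4, Efnb2, Sema3a and Plxnc1 lie on both sides of 0.

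Downstream of these receptors, Ngef, which encodes the exchange factor ephexin that Eph receptors switch towards RhoA, was the gene of 28 adaptors, kinases and exchange factors of Eph and ephrin signalling with an unadjusted p under 0.05 (+0.74, SE 0.31, limma adjusted p = 0.887). It was dim, at 5.34 ± 0.32 in the mutant and 4.61 ± 0.67 in wild type (log2 signal, SD, n = 5 each). Of that list 18 lay above 0 and 10 below, with a median of +0.069. Of 39 measured effectors of semaphorin, plexin and neuropilin signalling 25 lay above 0 and 14 below (median +0.035), and 3 more listed genes are not analysed here. Rras, the small GTPase that plexins inactivate, was the gene with an unadjusted p under 0.05, at 8.46 ± 0.29 in the mutant and 8.07 ± 0.22 in wild type (SD, n = 5 each; +0.39, SE 0.17, limma adjusted p = 0.887). Each list thus held 1 such gene, beside 5.49% of all genes in either direction. Over all genes 54.9% lay above 0, with a median of +0.025.

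The size of change that could have been missed varied by gene. The SE had a median of 0.21 and ran from 0.096 to 0.83. For 41 of the 52 genes the 95% interval lay within -1 to +1, that is within a 2-fold change either way, and for 11 it did not, 8 of them dim genes.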

How the data were processed

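RNA from 10 pools of metanephric mesenchyme was hybridised as biotin-labelled cRNA, 1 array per pool, per the labels' protocols. The authors deposited linear intensities, 1 per probe set and array, and how probes were summarised is not stated in the labels. In the deposited table every array had a mean of 250.0 after trimming 2% at each end, and array medians of log2(signal + 1) were 5.99 to 6.30, so no further normalization was applied. A log2 difference with a pseudocount of 1 understates changes of dim genes. Of 45101 probe sets, 64 were controls and 34945 had 1 gene symbol in GEO's platform annotation, 34741 of them matched by gene identifier to RefSeq (GRCm38.p6).

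Differences between genotypes were fitted in R 4.3.3 using limma 3.58.1 (lmFit and eBayes, two-sided) over all 18193 genes, with Benjamini-Hochberg adjustment over all of them; the threshold was 0.05. The fit was tested on simulated data. p-values measure the spread between pools. A gene was called dim if among the lowest 40% by mean log2 signal. Each array is 1 sample, and the number of arrays limits the precision.

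The members and lists were chosen with earlier results of these data known. By the rule for named genes, values in every array are given for genes with an unadjusted p under 0.05 or without overlap, for neuropilins and for the gene with the smallest p in each family or class; arrays of Epha4, Ephb3, Efnb2, Sema3a and Sema4b were added after their values were seen. Of each effector and marker list, up to 6 genes with an unadjusted p under 0.05 were to be named, or the one with the smallest p; for marker lists they are given in the closing section. No gene list was tested as a set. Alternatives were the mean of probe sets, each probe set alone, no dim genes, a pseudocount of 16, median centring, quantile normalization, moderation with a trend and robust variances, blocks for title wording and for the 18S sets, each 18S set alone, no arrays with the brightest hybridisation controls, and each array left out in turn. Arrays with shared title wording (3 pairs) had correlations of 0.098 to 0.143 between their deviations from the group means. No values for other pairs were set beside these, so they cannot decide whether the arrays were paired. The labels give no pairing, and the main fit used none.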

Additional observations from a re-analysis of the deposited data

Results flagged for a closer look

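In each group of 5 arrays, the gap between the most extreme array and its nearest neighbour was set against the group's range for all 52 genes. Of 104 groups of values 4 stood out, where chance alone marks about 1 in 20, or 5.2 here. Epha5 had a log2 signal of 0.95 in mutant array 2, against 4.72 to 5.95 in the other mutant arrays. Ephb1 was at 7.54 in mutant array 3, against 6.69 to 6.90. Sema3e was at 2.43 in mutant array 5, against 4.86 to 5.82. Sema4a was at 5.24 in mutant array 4, against 6.10 to 6.24.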

How the results depend on the processing

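In no setting that was run did any of the 52 genes reach an adjusted p under 0.05, whereas the count over all genes, 1 as reported, was 6 without the dimmest genes, 10 with trend and robust moderation, and 0 with the mean of probe sets, either block, either 18S set alone or without the pair with brightest hybridisation controls (0 to 2 without single arrays). The genes with an unadjusted p under 0.05 were 6, and 1 within the high-18S arrays, Plxna4, which was lower. With the replicate block for shared title wording there were 7, 5 higher and 2 lower (Sema3a and Sema4b), beside 3.73% and 2.4% of all genes, and with the mean of probe sets 6, 4 higher and 2 lower (Plxna1 and Sema3d), beside 3.4% and 2.14%. Leaving out single arrays gave 4 to 7 such genes, all higher (2.69% to 3.7% of all genes were), 38 to 43 genes above 0 (53.1% to 56.9% of all genes), and a median of +0.12 to +0.21 (+0.017 to +0.039 over all genes). Of the 52 genes 22 kept their sign in all 21 settings other than single probe sets, 20 of them higher. The share of all genes that did so is not given here. Uncx passed without the dimmest genes and, with Itga8, under trend and robust moderation. The cause of the changes of sign that follow was not tested.

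Within the high-18S arrays the sign turned for Efna1 (-0.20), Efna4 (-0.097), Epha2 (+0.14), Epha5 (+0.31), Epha8 (-0.72), Ephb1 (-0.19), Ephb3 (-0.32), Plxna2 (-0.11), Plxna3 (-0.037), Plxnb1 (-0.30), Sema3d (+0.11), Sema4a (-0.38), Sema4c (-0.13), Sema4d (-0.19), Sema5b (-0.065), Sema6b (-0.0090) and Sema6c (-0.070), and within the low-18S arrays for Epha3 (-0.12), Plxna1 (+0.0063), Plxna4 (+0.19), Sema3e (+0.67) and Sema6d (+0.010). Without the pair of arrays with brightest hybridisation controls it turned for Epha2 (+0.0013), Epha5 (+0.039), Epha8 (-0.32), Ephb1 (-0.13), Ephb4 (-0.17), Plxnb1 (-0.13), Plxnb2 (-0.071), Sema4a (-0.12), Sema4c (-0.030) and Sema6c (-0.059). With the mean of probe sets it turned for Efnb2 (-0.014), Epha4 (-0.021), Epha5 (+0.023), Plxna4 (+0.023), Plxnb1 (-0.038), Plxnc1 (-0.051), Sema3a (+0.068), Sema4b (+0.016) and Tfap2b (-0.35). On single dimmer probe sets it turned for Efnb2 (-0.72), Epha1 (-0.19), Epha4 (-0.074 and -0.59), Epha5 (+0.75 and +0.20), Plxna2 (-0.17), Plxna3 (-0.022), Plxna4 (+0.55), Plxnb1 (-0.10), Plxnc1 (-0.46 and -0.58), Sema3a (+1.12), Sema3c (-0.064), Sema3e (+0.082), Sema4b (+0.46), Sema5a (-0.021) and Sema6c (-0.15). Leaving out single arrays gave -0.0092 to +0.20 for Epha3, -1.18 to +0.068 for Epha5, -0.21 to +0.38 for Epha8, -0.15 to +0.28 for Ephb1, -0.075 to +0.26 for Ephb4, -0.016 to +0.32 for Nrp1, -0.13 to +0.042 for Plxna1, -0.12 to +0.14 for Plxnb1, -0.87 to +0.28 for Sema3e, -0.092 to +0.26 for Sema4a, -0.071 to +0.23 for Sema6c and -0.090 to +0.0028 for Sema6d.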

Other observations

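Among the marker lists, 9 of 11 nephron progenitor genes had an unadjusted p under 0.05, all lower in the mutant. None passed over all genes. Of all genes 2.08% were lower and 3.41% higher at an unadjusted p under 0.05. The 6 with the smallest p were Uncx (-1.28, SE 0.22), Itga8 (-0.77, SE 0.15), Gdnf (-1.12, SE 0.23), Cited1 (-1.11, SE 0.26), Eya1 (-0.73, SE 0.20) and Crym (-0.89, SE 0.24), with limma adjusted p of 0.283 to 0.552. Of 12 renal stroma genes Pdgfra (+0.36, SE 0.11), Postn (+0.50, SE 0.17) and Tbx18 (+0.46, SE 0.16) were higher in the mutant at that threshold. Ntn1, a netrin, was lower (-0.52, SE 0.17). Stmn2 (+0.67, SE 0.19) and Foxd3 (+0.99, SE 0.32) were higher at that threshold among 7 neuron and neural crest genes. The same held for C1qa (+0.73, SE 0.27) and Laptm5 (+0.37, SE 0.16) among 10 macrophage genes. The smallest p among endothelial genes was that of Cdh5 (+0.26, SE 0.14) and among ureteric bud genes that of Tfap2b (+0.34, SE 0.16), both above 0.05. None of these passed over all genes.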
